A study of Mus musculus with 2 samples.

Results

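Synovial lining fibroblasts of the mouse knee were found among cells prepared from articular cartilage after sham surgery or after surgical destabilisation of the medial meniscus (DMM). They were chosen by their own RNA: a cell had to carry Prg4 at 10000 CPM (UMIs of the gene per 1000000 UMIs of the cell) or more, at least 1 UMI of 3 or more of the 6 genes Clic5, Htra4, Col22a1, Tspan15, Pla1a and Rspo2, and Col2a1 under 2000 CPM. Cells also needed 500 genes and at most 10% mitochondrial UMIs. This gave 1158 of 19881 cells, 287 of 9992 in the sham library and 871 of 9889 in the DMM library.

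Both libraries came from knee joint cartilage of wild-type (WT) mice, 3 mice pooled per library, and each group had 1 library. The digest was sorted for live cells (Calcein AM positive, DAPI negative) that lacked the blood and endothelial surface proteins CD45, Ter119 and CD31, so macrophages of the lining and endothelial cells should be largely removed by the gate. Strain, age, sex and the time after surgery were not given in the sources used here. UMIs were summed over the cells of a population and scaled to CPM of that sum, and they were not divided by gene length, so levels are compared between populations and not between genes. Bracketed values are 95% intervals that cover counting error only. Because each group was a single library, ratios carry no test, and differences between mice, surgery and preparation cannot be told apart.

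The synovial lining is the thin cell layer between the joint cavity and the connective tissue of the synovium. Its fibroblasts secrete lubricin, the product of Prg4, and hyaluronan into the joint fluid, while resident macrophages share the layer with them. Fibroblasts of the deeper sublining are known for Thy1 and, around vessels, for Cd34 and Pi16. Chondrocytes at the cartilage surface also make lubricin, so Prg4 alone does not separate both cell types, and Col2a1, the main collagen of cartilage, marks the chondrocyte.

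The genes of the rule gave the picture that the rule demands, and they are listed as a description. Prg4 (lubricin, on chromosome 1 at chr1:150449412-150466165, minus strand, GRCm38) stood at 65135 CPM in sham and 70056 CPM in DMM lining cells. Single sham cells ranged from 10068 to 212532 CPM around a median of 47840 CPM, and DMM cells from 10204 to 243004 CPM around 63116 CPM. The spread from cell to cell was wide in both libraries and the ranges overlapped. Clic5, a chloride intracellular channel protein, stood at 1432 and 1015 CPM in sham and DMM. The secreted serine protease gene Htra4 stood at 1007 and 1148 CPM, and Col22a1, a collagen of tissue junctions, at 775 and 855 CPM. Tspan15, a tetraspanin partner of the protease ADAM10, had nearly the same level in both libraries. Tspan15 stood at 367 and 352 CPM. Pla1a, a phospholipase for phosphatidylserine, stood at 660 and 930 CPM, and Rspo2, an R-spondin that strengthens Wnt signals, at 639 and 653 CPM. All 6 genes were detected in 47.7% of sham and 53.3% of DMM members.

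The comparison populations are partly set by the same genes, so their values too are only a description. Clic5 was 6.79 and 3.85 CPM in superficial chondrocytes (Prg4 at 10000 CPM or more, Col2a1 at 2000 CPM or more and fewer than 3 of the 6 genes; 637 sham and 592 DMM cells). Clic5 was 4.95 and 2.08 CPM in adventitial fibroblasts (Pi16 with at least 1 of Cd34, Dpp4 and Clec3b, and Prg4 and Col2a1 under the limits; 304 and 200 cells). In erythroid cells (at least 20% haemoglobin UMIs), which should lack the gene, Clic5 was 3.81 and 2.34 CPM. Htra4 stood higher in superficial chondrocytes, at 81.1 and 90.7 CPM, and was detected in 42.2% and 45.1% of them. Prg4, which also defines those cells, stood at 41959 and 49578 CPM there and at 1093 and 1099 CPM in erythroid cells.

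**Figure D1:**
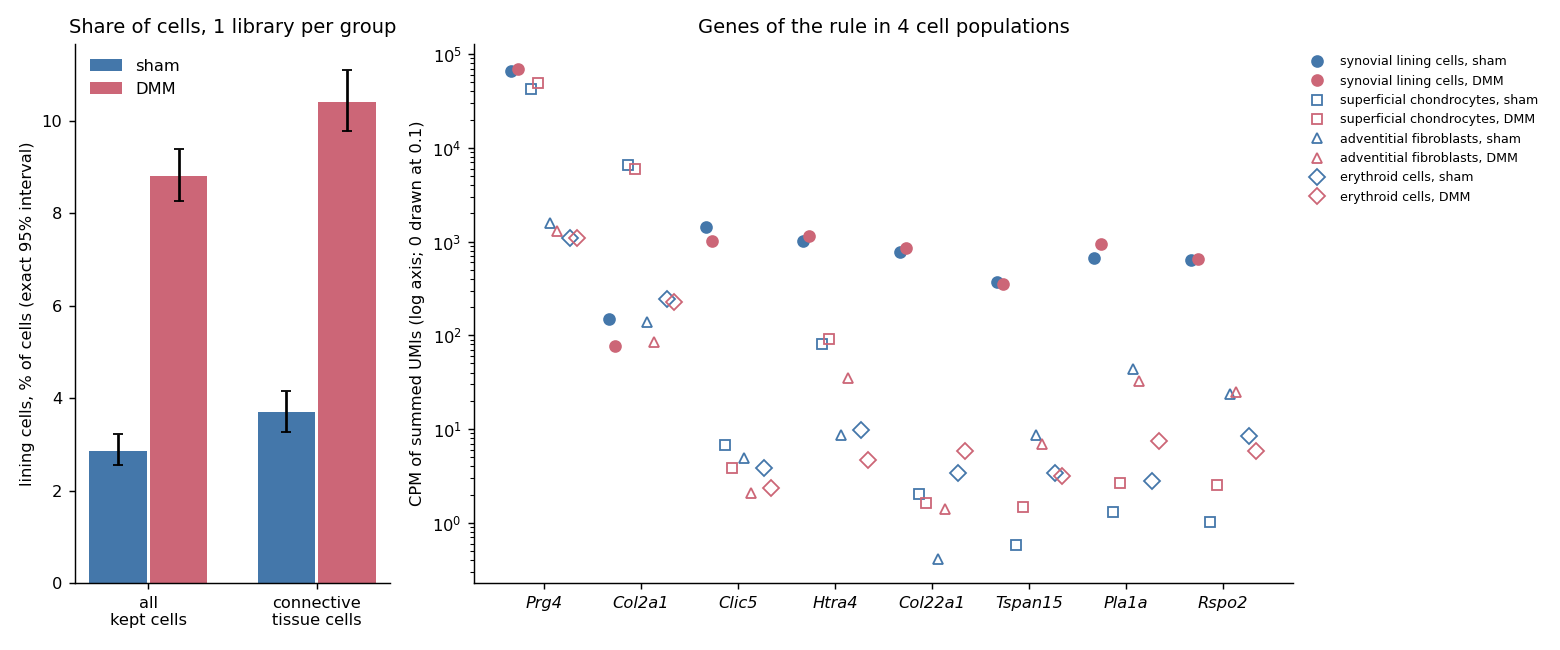
Left, lining cells as a percentage of all kept cells and of connective tissue cells, with exact intervals; right, CPM of the genes of the rule in lining cells (filled) and in 3 other populations (open), sham in blue and DMM in red, on a log axis. The DMM bars stand at 8.81% and 10.4% and the sham bars at 2.87% and 3.70%, and the 6 lining genes, which chose the cells, lie higher in the filled symbols by construction.

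Cells close to a limit resembled both sides. At the Prg4 limit, 13 sham cells just inside held Clic5 at 1502 CPM and 9 just outside at 923 CPM. The marker limit cut through more cells: 28 sham members had exactly 3 markers, while 99 sham cells that met the other conditions had 2. Those 99 cells held Acan, the main cartilage proteoglycan, at 784 CPM against 326 CPM in the 28. In DMM, 51 cells had 3 markers and 79 had 2, with Acan at 583 and 895 CPM.

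Markers of macrophages, lymphocytes and endothelial cells were near 0, while those of other connective tissue cells were not. The summed level of 16 macrophage genes was 38.4 CPM in sham and 31.3 CPM in DMM lining cells, with 7 and 2 of the genes at 0, among them Aif1 and Vsig4 in both libraries. The 10 endothelial genes summed to 9.31 and 6.17 CPM, with Cdh5 and Cldn5 at 0 in both, and the lymphoid and mast genes to 2.91 and 3.52 CPM. Macrophages and endothelial cells were not a visible part of the population, which the rule and the sorting gate largely set beforehand. The sublining gene Thy1 stood at 1.75 CPM in sham and 3.43 CPM in DMM, against 81.3 and 118 CPM in adventitial fibroblasts, and Cd34 at 26.2 and 12.9 CPM against 669 and 544 CPM. Other adventitial genes were present: the list of 10 summed to 1940 and 1833 CPM in lining cells against 7477 and 6771 CPM in adventitial fibroblasts. Its member Sema3c stood at 648 and 343 CPM against 535 and 290 CPM, and Ly6c1 at 473 and 622 CPM against 1110 and 1158 CPM. Osteoblast genes summed to 1419 CPM in sham and 2584 CPM in DMM, mural genes to 652 and 522 CPM, marrow stroma genes to 486 and 307 CPM, tendon genes to 326 and 347 CPM and Schwann cell genes to 113 and 140 CPM. Superficial chondrocyte genes summed to 1068 and 763 CPM and adipocyte genes to 4.37 and 2.15 CPM. Neutrophil genes summed to 133 and 10.5 CPM, and to 2.37 and 3.67 CPM without the mixed sub-clusters described next. Without those cells, mural genes summed to 607 and 390 CPM and superficial chondrocyte genes to 348 and 313 CPM.

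A small set of members carried RNA of a different cell type beside the lining genes. Clustering the members, described further below, set apart 27 sham cells (9.41%) and 56 DMM cells (6.43%) in 3 sub-clusters led by superficial chondrocyte, erythroid or mural genes. Scrublet called doublets in 64.3% of sham and 55.9% of DMM cells of the chondrocyte-led sub-cluster, against 4.53% and 6.54% of all members. The 9 erythroid genes summed to 5092 CPM in all sham and 2391 CPM in all DMM members, and to 412 and 404 CPM without these cells. The 13 chondrocyte genes summed to 760 and 477 CPM, and to 315 and 265 CPM without them. Acan stood at 108 and 80.1 CPM in all members and at 12.5 and 26.8 CPM without these cells, so its direction turned over. Values without them are given beside each gene where they matter.

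Outside the rule, the genes furthest above superficial chondrocytes and adventitial fibroblasts in lining cells encoded proteins of several kinds. The 15 genes furthest above both were picked for this order, and since the cells were selected on their RNA the values are a description with no test. Tmem196, which encodes a transmembrane protein, stood at 169 CPM in sham and 197 CPM in DMM lining cells, and at 0.412 CPM or less in superficial chondrocytes and adventitial fibroblasts of both libraries. Fut9, the fucosyltransferase that makes the Lewis x sugar, stood at 199 and 179 CPM against at most 0.693 CPM. Grip1, a scaffold that binds glutamate receptors and ephrins, stood at 203 and 145 CPM against at most 1.39 CPM. These 3 genes were detected in 51.9%, 42.9% and 60.3% of sham members.

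Chst2, a sulfotransferase for glycans, stood at 211 and 312 CPM in lining cells and at 9.01 CPM or less in both other populations. Megf10, an engulfment receptor, stood at 237 and 242 CPM against at most 10.4 CPM. The repulsive guidance cue Sema3a stood at 474 and 298 CPM against at most 22.3 CPM, and its relative Sema5a at 440 and 250 CPM against at most 32.6 CPM. Semaphorins are best known as guidance cues of growing axons and vessels. Sparcl1, an antiadhesive matrix protein, stood at 1083 and 765 CPM, and the laminin receptor subunit Itga6 at 390 and 286 CPM. Fgl2, a fibrinogen-like protein with prothrombinase activity, stood at 1385 and 1578 CPM against 98.6 and 111 CPM in adventitial fibroblasts and 5.78 and 3.11 CPM in superficial chondrocytes. For Fgl2, as for the other genes of this set, lining cells of both libraries lay above both populations of both libraries.

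Genes lower in lining cells than in both other populations included matrix and imprinted genes. Myoc, which encodes the secreted glycoprotein myocilin, stood at 19.5 and 15.9 CPM in lining cells, against 287 and 134 CPM in superficial chondrocytes and 608 and 486 CPM in adventitial fibroblasts. The small proteoglycan gene Ogn stood at 57.9 and 23.0 CPM against 263 CPM or more. The imprinted long RNA Meg3 stood at 32.6 and 19.3 CPM against 105 CPM or more, and the glypican gene Gpc6 at 50.1 and 35.6 CPM against 163 CPM or more. These genes were named after their values were seen, and none was absent from lining cells.

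**Figure D2:**
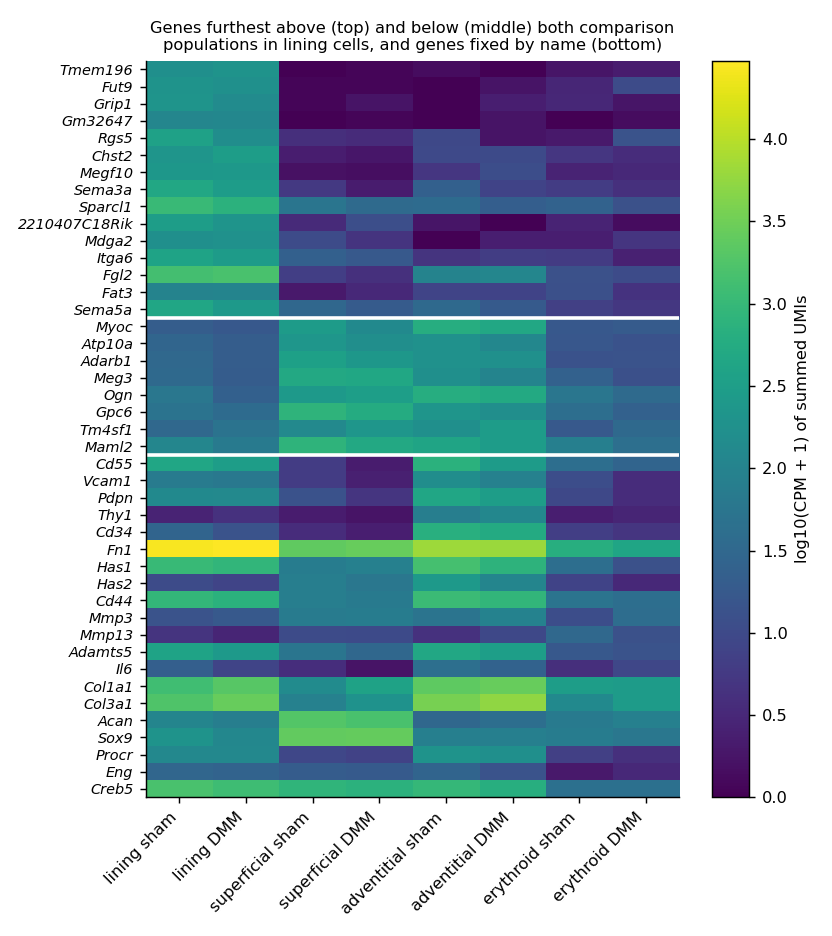
Shade gives log10(CPM + 1) of summed UMIs for genes furthest above and furthest below both comparison populations and for genes fixed by name, in 4 populations of each library. The top block is brighter in the lining columns than in the others, and Thy1 and Cd34 are brightest in adventitial fibroblasts.

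Known lining genes that the rule did not use behaved unevenly. Fn1 (fibronectin) stood at 27359 CPM in sham and 29935 CPM in DMM lining cells, against 2389 to 2749 CPM in superficial chondrocytes and 6430 to 6516 CPM in adventitial fibroblasts. Cd55, a shield against complement and a classical stain of the lining, stood at 440 and 305 CPM, and Vcam1, an adhesion receptor for leukocytes, at 71.9 and 61.7 CPM. Both were also found in adventitial fibroblasts, Cd55 at 710 and 290 CPM and Vcam1 at 153 and 90.8 CPM, so neither separated the fibroblasts. Pdpn (podoplanin) stood at 133 and 125 CPM, below its 438 and 310 CPM in adventitial fibroblasts. Procr, the protein C receptor used as a sorting marker elsewhere in the study, stood at 122 and 120 CPM in lining cells, at 7.95 and 6.67 CPM in superficial chondrocytes and at 201 and 170 CPM in adventitial fibroblasts. Eng, which encodes CD105, stood at 29.4 and 25.7 CPM.

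Has1 and Has2 encode hyaluronan synthases. Has1 stood at 1025 CPM in sham and 889 CPM in DMM, and was detected in 89.5% and 93.1% of members. Has1 in superficial chondrocytes stood at 74.4 and 87.9 CPM and in adventitial fibroblasts at 1442 and 794 CPM. Has2 stood at 9.61 and 7.15 CPM in lining cells, against 79.6 and 57.5 CPM in superficial chondrocytes and 252 and 109 CPM in adventitial fibroblasts. Has2 was thus lower in lining cells than in both, and Has1 higher than in superficial chondrocytes. Cd44, the hyaluronan receptor, stood at 906 and 717 CPM, and Ugdh, which makes a sugar precursor of hyaluronan, at 780 and 724 CPM. Tnfaip6, which crosslinks hyaluronan, was the member with the highest ratio, at 283 CPM in sham and 501 CPM in DMM (1.77-fold [1.65, 1.90]). Of 11 lubricin and hyaluronan genes with 50 UMIs or more, 2 were above and 9 below equal CPM in DMM, with none past 2-fold.

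Creb5, a transcription factor of the CREB and ATF family that is known to drive Prg4 in joint cells, was detected in 99.7% of sham and 99.5% of DMM members. It stood at 1549 CPM in sham and 1219 CPM in DMM, against 642 to 961 CPM in superficial chondrocytes and adventitial fibroblasts and 43.9 and 44.4 CPM in erythroid cells. Factors of this family bind the cAMP response element (CRE), so the 250 bases before the start of lining genes were searched for the full CRE (TGACGTCA), its core (TGACG) and the AP-1 site (TGANTCA), on both strands. RefSeq promoters of GRCm38.p6 were found for 12 of 20 genes looked up, Tspan15 and Clic5 among the 7 genes that mark the rule. The full CRE was in 1.55% of all 32841 mouse promoters of that length, the core, which the full site contains on both strands, in 17.8%, and the AP-1 site in 6.75%. Has1, Areg and the first start of Creb5 held the full CRE, and Tspan15 and the second start of Creb5 held an AP-1 site. Areg, Cd55 and Timp1 held a core outside a full site. The 3 promoters with the full CRE and that of Tspan15, a gene of the rule, are shown, with the sites in capitals, 5′ to 3′ on the gene's strand.
Has1 (chr17:17855189-17855438, minus strand): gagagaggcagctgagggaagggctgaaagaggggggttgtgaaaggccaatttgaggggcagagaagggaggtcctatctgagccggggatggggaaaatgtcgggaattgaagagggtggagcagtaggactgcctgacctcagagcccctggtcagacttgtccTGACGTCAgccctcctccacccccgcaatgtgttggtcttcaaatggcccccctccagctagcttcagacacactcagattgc
Areg (chr5:91139349-91139598, plus strand): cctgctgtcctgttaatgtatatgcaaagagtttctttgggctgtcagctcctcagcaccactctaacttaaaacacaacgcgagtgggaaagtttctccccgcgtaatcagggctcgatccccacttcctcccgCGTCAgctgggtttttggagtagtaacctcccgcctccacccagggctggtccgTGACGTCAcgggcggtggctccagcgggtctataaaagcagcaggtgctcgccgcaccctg
Creb5 (chr6:53287053-53287302, plus strand): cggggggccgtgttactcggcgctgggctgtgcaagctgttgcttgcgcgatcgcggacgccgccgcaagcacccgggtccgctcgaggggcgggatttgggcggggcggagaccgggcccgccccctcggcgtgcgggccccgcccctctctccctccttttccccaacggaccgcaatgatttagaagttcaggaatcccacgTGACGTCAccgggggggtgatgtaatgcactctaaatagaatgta
Tspan15 (chr10:62231219-62231468, minus strand): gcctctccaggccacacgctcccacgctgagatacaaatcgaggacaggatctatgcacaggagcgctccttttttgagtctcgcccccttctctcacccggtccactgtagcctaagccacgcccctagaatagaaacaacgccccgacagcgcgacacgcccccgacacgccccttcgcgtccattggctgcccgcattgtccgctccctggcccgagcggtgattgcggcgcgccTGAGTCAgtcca
In Areg a further core lies before the full site. Clic5, Tmem196, Serpine2, Rgs5, Sema3e and both starts of Nt5dc2 held none of these letters in the window. A match of letters is a description of the sequence and does not show that a factor binds there.

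Lining cells were more frequent among DMM than among sham cells. They were 2.87% [2.55, 3.22] of kept sham cells and 8.81% [8.26, 9.38] of kept DMM cells, a ratio of 3.07 [2.69, 3.49]. Among connective tissue cells (Serpinh1 and Sparc detected, under 5% haemoglobin UMIs) the shares were 3.70% and 10.4%. When every cell was thinned to 3000 UMIs before the rule was applied, they were 2.62% and 8.55%. The DMM share was the larger in each case. Members had medians of 11446 UMIs in sham and 11127 in DMM, and Scrublet called 4.63% of all kept sham and 3.64% of all kept DMM cells doublets. A share depends on how much synovium came along in the dissection, which was not measured, and on the loss of other cells, so more lining cells and fewer other cells cannot be told apart.

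Within lining cells, 10553 genes had 50 or more UMIs over both libraries. Of these, 125 (1.18%) were at least 2-fold higher in DMM with an interval without 1, and 238 (2.26%) at least 2-fold lower. The median gene lay at -0.11 on the log2 scale and 41.3% of genes lay above 0. With median-of-ratios scaling, which centres the median gene, 180 genes were higher and 177 lower. Long genes were lower in DMM as a whole: the median log2 ratio was 0.27 in the 2109 genes of the shortest span and -0.41 in the 2110 of the longest, and the part of this trend in the ratio of any long gene was not tested.

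Nt5dc2, which encodes a protein of the 5'-nucleotidase domain family, had the highest ratio among the genes named. It stood at 7.86 CPM in sham and 59.3 CPM in DMM lining cells, 7.55-fold [5.14, 11.6], and was detected in 6.97% and 23.7% of members. In superficial chondrocytes it stood at 6.65 and 9.63 CPM. Adventitial fibroblasts held it at 2.06 and 8.32 CPM, also higher in DMM, with a log2 ratio of 2.01 [0.40, 3.87]. Ccn5, a matricellular protein of the CCN family also known as Wisp2, stood at 41.9 and 163 CPM, 3.88-fold [3.27, 4.63]. It was detected in 19.9% of sham and 52.4% of DMM members. Ccn5 had a like ratio in adventitial fibroblasts, at 40.0 and 177 CPM, and was near absent from superficial chondrocytes, at 2.89 and 2.96 CPM.

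Timp1, the inhibitor of matrix metalloproteinases, stood at 336 CPM in sham and 755 CPM in DMM, 2.25-fold [2.11, 2.39]. It was also higher in DMM superficial chondrocytes, at 121 and 177 CPM, and in adventitial fibroblasts, at 71.8 and 156 CPM. Its level in erythroid cells, 32.9 and 88.5 CPM, moved the same way, and the part of free RNA in the lining ratio was not tested. Mmp2, the gelatinase that TIMP proteins hold in check, stood at 97.8 and 196 CPM, 2.00-fold [1.78, 2.25]. Slpi, an inhibitor of leukocyte proteases, stood at 26.8 and 57.4 CPM, 2.14-fold [1.72, 2.70]. A protease and inhibitors of proteases were thus higher in the same library. Matn2, a matrix adaptor protein, stood at 63.5 and 141 CPM, 2.22-fold [1.93, 2.58]. Steap2, a metalloreductase, stood at 35.5 and 71.5 CPM. Sfrp4, a secreted Wnt antagonist, stood at 51.5 and 103 CPM, with 44.1% of the sham UMIs in a single cell.

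Osteocalcin genes were also higher, with limits. Bglap stood at 27.9 and 99.6 CPM and its near-identical neighbour Bglap2 at 79.8 and 263 CPM, and reads of such copies can be split between them by the counting. Bglap was detected in 68 sham and 395 DMM members (23.7% and 45.4%), against 6.30% and 5.60% of erythroid cells, where the sum was 83.2 and 63.9 CPM. Both shares in lining cells lay above those in erythroid cells, whose median depths were 5920 and 6425 UMIs. With a Col2a1 limit of 4000 CPM, the Bglap ratio turned over to -1.43 on the log2 scale, because the 3 sham cells added hold 842 Bglap UMIs between them. They also hold 334 Bglap2 UMIs beside the 274 of the sham members, and the log2 ratio of Bglap2 was then 0.60 in place of 1.72.

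Serpine2, a protease inhibitor that blocks thrombin and plasminogen activators, had the highest level among the 10 lowest ratios. It stood at 703 CPM in sham and 306 CPM in DMM lining cells, 2.29-fold [2.17, 2.42] lower, and was detected in 88.9% and 61.5% of members. In superficial chondrocytes it stood at 1753 and 2033 CPM. Sema3e, a guidance cue for vessels and axons, stood at 425 and 182 CPM, 2.33-fold lower. Rgs5, a brake on G protein signals best known from pericytes, stood at 370 and 156 CPM, 2.37-fold [2.20, 2.55] lower. Without the mixed sub-clusters Rgs5 stood at 395 and 157 CPM. Rgs5 belongs to the 10 mural genes, which summed to 652 and 522 CPM in lining cells against 165 and 91.5 CPM in adventitial fibroblasts. Without the mixed sub-clusters the mural sum in lining cells was 607 and 390 CPM. Among the others, Cspg4 stood at 134 CPM in both libraries, Tagln at 62.3 and 99.4 CPM and Acta2 at 36.1 and 70.1 CPM, while Kcnj8 had 0 UMIs in sham and 3 in DMM. The part of mural RNA in the Rgs5 ratio was not tested.

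Smpd3, a neutral sphingomyelinase, stood at 139 and 51.7 CPM, 2.68-fold [2.36, 3.04] lower. Acvr1c, the activin receptor ALK7, stood at 62.9 and 26.0 CPM and was near absent from both other populations. Lower genes also included Celf2, a splicing factor, at 85.6 and 28.3 CPM, Kcnt2, a potassium channel, at 52.4 and 19.9 CPM, Magi3, a junction scaffold, at 89.4 and 37.0 CPM, and Tle4, a corepressor, at 161 and 71.6 CPM. Celf2 spans 970 kb, Kcnt2 366 kb, Sema3e 231 kb, Magi3 207 kb, Tle4 150 kb, Acvr1c 90.4 kb and Smpd3 85.4 kb. All of these lie within the longest genes (79.5 kb or more), whose median was -0.41. Of the longest genes 4.98% were at least 2-fold lower, against 2.26% of all genes. Serpine2, at 67.0 kb, and Rgs5, at 40.3 kb, are shorter. The part of gene span in these ratios was not tested. Magi3 and Tle4 were also lower in DMM superficial chondrocytes, at 34.7 and 16.7 CPM and at 81.8 and 41.9 CPM.

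**Figure D3:**
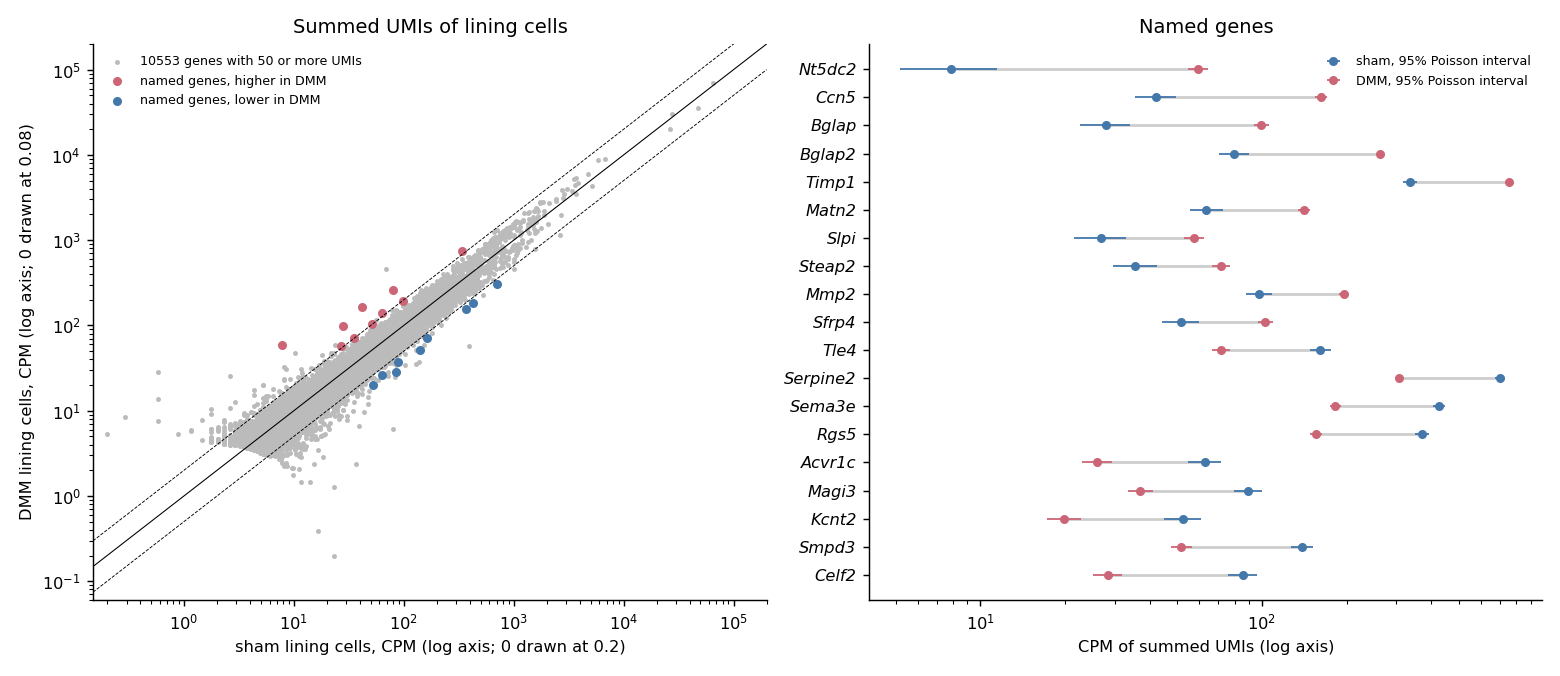
Left, CPM of 10553 genes in sham and DMM lining cells on log axes, with a solid line at equal CPM and dashed lines at 2-fold; right, named genes with Poisson intervals. Among the coloured points Nt5dc2 lies furthest from the line at 7.86 and 59.3 CPM, and Serpine2, at 703 and 306 CPM, is the most abundant below it.

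Cells were also compared within sub-clusters of the members, described further on. In 4 sub-clusters with 50 or more sham cells each, numbered 1, 2, 4 and 5, 9 of the 10 genes with the highest ratios were higher in DMM in all 4, Bglap being the exception. Of the 10 lowest, 8 were lower in all 4, Acvr1c and Rgs5 being the exceptions. Intervals were without 0 in 33 of 40 and 35 of 40 pairs of gene and sub-cluster. These genes were picked for their ratios over the same cells, which largely sets such counts, so they are a description and no test. Serpine2 stood at 482 and 149 CPM in sub-cluster 1, 344 and 179 CPM in 2, 577 and 338 CPM in 4 and 962 and 471 CPM in 5. Timp1 was nearly level in sub-cluster 1, at 713 and 773 CPM, and higher in DMM in 2 (219 and 474 CPM), 4 (77.7 and 204 CPM) and 5 (270 and 673 CPM).

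Respiratory chain genes were higher in DMM as a group. All 25 of 25 members lay above 0, against 41.3% of all genes, and their median log2 ratio was 0.58, 0.68 above that of all genes, with none past 2-fold. Cox8a, a subunit of cytochrome oxidase, stood at 338 CPM in sham and 594 CPM in DMM, and Ndufa4, another small subunit, at 247 and 397 CPM. Atp5e of the ATP synthase stood at 179 and 297 CPM, and Sdhc of complex II at 48.0 and 49.8 CPM. The list's medians were 0.46 in superficial chondrocytes and 0.57 in adventitial fibroblasts, so the list lay above 0 in all 3 populations. Erythroid cells moved the same way, with Cox8a at 364 and 581 CPM and Ndufa4 at 463 and 616 CPM, and the part of a difference between whole libraries was not tested. These genes are short, and relative to genes of the same span the lining value was 0.32.

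Fibrous matrix genes followed, with 18 of 25 above 0 and a median 0.51 above that of all genes. Col1a1 and Col1a2, the chains of type I collagen, stood at 1246 and 668 CPM in sham and at 2078 and 1230 CPM in DMM. Col3a1 stood at 1751 and 2734 CPM, and the crosslinking enzyme gene Loxl1 at 84.1 and 151 CPM. Fmod, a small proteoglycan that organises collagen fibrils, stood at 23.9 and 58.5 CPM, while Ogn stood at 57.9 and 23.0 CPM. Type VI collagen was mixed, with Col6a1 at 359 and 362 CPM and Col6a3 at 318 and 421 CPM. The median in superficial chondrocytes was -0.18 and in adventitial fibroblasts 0.12, and the difference between populations was not tested. With doublets left out, the list lay 0.26 above all genes. With a Col2a1 limit of 4000 CPM it lay 0.24 above, and the log2 ratio of Col1a1 was 0.07 in place of 0.74. Osteoblast genes, a list that holds Col1a1, were also higher in sum, at 1419 and 2584 CPM. Ibsp stood at 55.3 and 117 CPM and Alpl at 5.24 and 19.9 CPM. Inside sub-cluster 5, described further on, Ibsp stood at 64.3 and 680 CPM, and over all other members at 53.5 and 35.0 CPM. The part of osteoblast genes in the fibrous matrix result was not tested.

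Lysosome genes had 14 of 17 above 0 and a median 0.43 above all genes, or 0.26 relative to genes of the same span. Cd63, a tetraspanin of late endosomes, stood at 1044 and 1688 CPM, cathepsin D (Ctsd) at 354 and 496 CPM, and Hexa, which breaks down gangliosides, at 239 and 335 CPM. Lamp1 stood at 729 and 727 CPM and Lamp2 at 461 and 406 CPM, so these membrane proteins of the organelle did not lie above equal levels. Antioxidant genes had 13 of 20 above 0 and a median 0.37 above all genes, or 0.18 relative to genes of the same span, among them the metallothionein Mt1 at 381 and 630 CPM and the secreted peroxidase Gpx3 at 918 and 1441 CPM. Hmox1 and Txnrd1, known targets of NRF2, stood the other way, at 49.8 and 37.7 CPM and at 123 and 92.9 CPM. Glycolysis and hypoxia genes had 14 of 24 above 0 and a median 0.34 above all genes, but under 0.3 or at it in 6 of 20 alternatives, the lowest being 0.15 relative to genes of the same span. Eno1, an enolase, stood at 58.5 and 86.3 CPM, and P4ha1, a prolyl hydroxylase of collagen, at 194 and 138 CPM. Median log2 ratios of lysosome genes were 0.33 in lining cells, 0.17 in superficial chondrocytes and 0.19 in adventitial fibroblasts. In the same order they were 0.26, 0.25 and 0.32 for antioxidant genes and 0.23, 0.36 and 0.22 for glycolysis and hypoxia genes.

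Among enzymes that act on matrix, Timp1 and Mmp2 were the only 2 of 17 (11.8%) past 2-fold higher, against 1.18% of all genes. Mmp2 lay at the limit, and under it in 8 of 20 alternatives, with a log2 ratio of 0.91 without the mixed sub-clusters. Ctsk (cathepsin K) stood at 565 and 809 CPM and Htra1 at 803 and 1153 CPM. Adamts5, the main aggrecanase of mouse cartilage, stood at 401 CPM in sham and 249 CPM in DMM, and Adamts1 at 173 and 121 CPM. Adamts5 was also lower in DMM superficial chondrocytes (53.2 and 30.1 CPM) and adventitial fibroblasts (489 and 327 CPM). Among sub-clusters 1 to 5 it was lower in DMM in 1, 4 and 5. It was nearly level in 2 (257 and 243 CPM) and higher in 3 (133 and 242 CPM, from 19 sham UMIs). Mmp3 at 12.8 and 16.8 CPM and Mmp13 at 3.78 and 1.86 CPM were low in both. Without the mixed sub-clusters Mmp3 stood at 4.40 and 12.2 CPM and Mmp13 at 4.40 and 1.83 CPM. Single cells held 45.5% of the sham Mmp3 UMIs and 69.2% of the sham Mmp13 UMIs, so these levels rest on few cells.

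**Figure D4:**
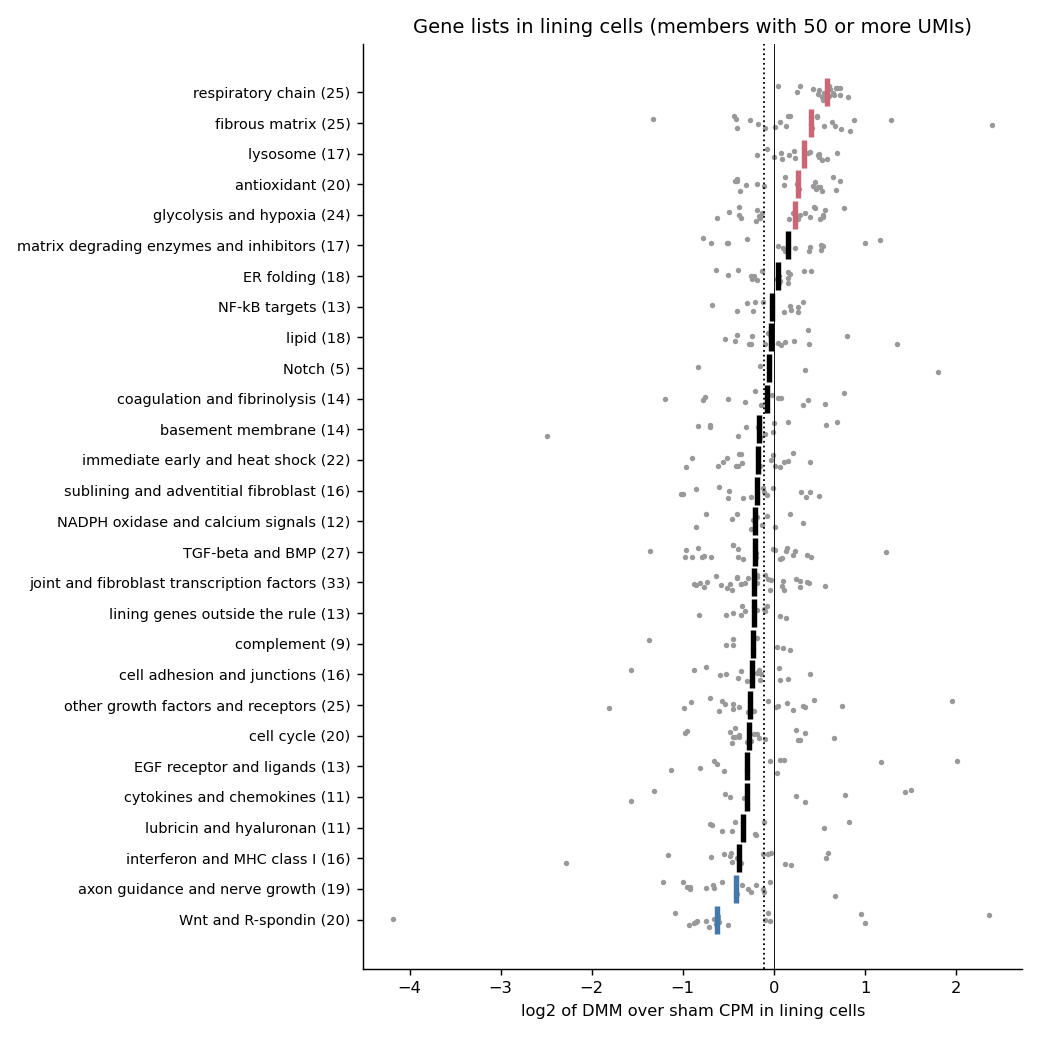
Each grey point is the log2 ratio of DMM over sham CPM of 1 gene in lining cells, in 28 lists, with the number of genes in brackets; vertical bars are list medians, red or blue where the median lies 0.3 or more from that of all genes (dotted line). All 25 respiratory chain points lie right of 0, and 17 of 20 Wnt points lie left of it.

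Wnt pathway genes leaned the other way, with 17 of 20 below 0, against 58.7% of all genes, and a median 0.52 below that of all genes. The list's median log2 ratio was -0.62 in lining cells, -0.54 in superficial chondrocytes and 0.05 in adventitial fibroblasts. The receptors Lgr4 (71.9 and 47.3 CPM) and Lrp6 (102 and 67.0 CPM) bind R-spondins and Wnt proteins. The ligase Znrf3, which R-spondins restrain, stood at 53.0 and 28.7 CPM, and the transcription factor Tcf7l2 at 143 and 91.9 CPM. Fzd1, at 15.7 and 30.6 CPM, and Sfrp4 were higher. Frzb, a Wnt antagonist of cartilage, stood at 23.0 CPM in sham and 1.27 CPM in DMM, but only 2 of its 79 sham UMIs lay outside the mixed sub-clusters, where it stood at 0.676 and 0.647 CPM. Wif1, another cartilage antagonist, stood at 31.7 and 16.6 CPM in all members and at 4.06 and 8.31 CPM without those cells. Relative to genes of the same span the list lay 0.26 below.

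Guidance and nerve growth genes had 18 of 19 below 0, against 58.7% of all genes, and a median 0.31 below all genes. Sema3c stood at 648 and 343 CPM, Sema3a at 474 and 298 CPM, Slit3 at 107 and 55.3 CPM and the receptor Robo2 at 179 and 94.9 CPM. Ntf3, at 4.08 and 6.46 CPM, was the gene above 0. Many of these genes are long, and relative to genes of the same span the median lay 0.26 below. In superficial chondrocytes the list's median was -0.71 and in adventitial fibroblasts -0.44, so the list lay below 0 in all 3 populations.

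Ligands of the EGF receptor included some found in lining cells and hardly in superficial chondrocytes or adventitial fibroblasts. Ereg (epiregulin) stood at 38.4 and 41.4 CPM in lining cells, at 0.145 CPM in sham and 0 CPM in DMM superficial chondrocytes and at 0 in adventitial fibroblasts. Areg (amphiregulin) stood at 8.15 CPM in sham and 32.9 CPM in DMM, a log2 ratio of 2.01 [1.46, 2.62], from 28 UMIs in sham. Without the mixed sub-clusters it stood at 8.46 and 32.9 CPM. Most Areg UMIs of DMM lay in sub-cluster 2, at 18.0 CPM in sham and 105 CPM in DMM. Hbegf, the heparin-binding ligand, stood at 1894 and 1984 CPM and Btc (betacellulin) at 36.1 and 23.5 CPM. Hbegf was also found in superficial chondrocytes, at 1296 and 1414 CPM, and stood at 26.8 and 62.4 CPM in adventitial fibroblasts. The receptor Egfr stood at 823 and 562 CPM, and the feedback inhibitor Errfi1 at 1482 and 1515 CPM. Of 13 genes of the list, 5 lay above 0.

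Inflammatory messengers were low and mixed. Il6 stood at 21.5 CPM in sham and 7.25 CPM in DMM, with 33.8% of the sham UMIs in 1 cell. Il1b UMIs, 18 in sham and 10 in DMM, all lay in the mixed sub-clusters. Cxcl1, a neutrophil attractant, stood at 77.7 and 134 CPM and Csf1, the growth factor of macrophages, at 148 and 106 CPM. Of 11 genes with 50 UMIs or more, 5 were above and 6 below 0, 2 past 2-fold each way (18.2%), against 1.18% of all genes higher and 2.26% lower. These were Cxcl14 and Cxcl2, higher in DMM, and Il6 and Tnfrsf11b, lower. Single cells held 16.1% of the DMM Cxcl14, 38.6% of the DMM Cxcl2 and 23.0% of the sham Tnfrsf11b UMIs, so these calls rest partly on few cells. Tnfrsf11b is also in the superficial chondrocyte list, and stood at 1413 and 959 CPM in those cells. The NF-kB targets had 6 of 13 above 0 and none past 2-fold. In the TGF-beta and BMP list, 10 of 27 were above 0: Bmper, which modulates BMP, stood at 11.9 and 28.0 CPM, while Bmp4 stood at 10.8 and 4.21 CPM and the latent TGF-beta binding protein gene Ltbp2 at 129 and 69.0 CPM. The remaining lists lay within 0.3 of the median of all genes.

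Clustering the 1158 members gave 8 sub-clusters, which are described by number and leading genes. The clustering used the same RNA, so these genes are no test. Sub-cluster 1 was led by Adarb2, Phactr1, the potassium channel gene Kcnc2, Fut9 and Rspo2, with Rspo2 at 1464 CPM, and Prg4 at 83169 CPM. Sub-cluster 2 was led by Ereg, Cxcl1, Fbxo32, Mpp7 and Tnfaip6, and held Has1 at 1652 CPM. Sub-cluster 4 was led by the hedgehog antagonist Hhip, by Sema3d, Rgs5 and Sema3e, and held Clic5 at 2600 CPM, Cd55 at 970 CPM and Hbegf at 4068 CPM. Rspo2 was 121 CPM there. Clic5, Cd55 and Hbegf were thus highest in sub-cluster 4, and Rspo2 and Pla1a in 1, where Pla1a stood at 1484 CPM against 287 CPM in 4.

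Sub-cluster 5 was led by Myoc, Apod, Col14a1, Aspn and Lum, genes of fibrous connective tissue, with Lum at 1942 CPM and Col1a1 at 3960 CPM. Cd34 was 61.9 CPM and Thy1 13.3 CPM there, the highest Cd34 among the 8. Scrublet called 19.8% of its DMM and 0% of its sham cells doublets. Sub-cluster 3 was led by Spp1 (osteopontin), Timp1, Ccn5 and Thbs4, with Prg4 at 94911 CPM. Sub-clusters 6, 7 and 8 were the mixed ones: 6 was led by Casr, Serpina1b, Ecrg4 and Cytl1 and held Sox9 at 1341 CPM, 7 was led by erythroid and granulocyte genes such as Rhag and Retnlg, and 8, of 2 sham and 10 DMM cells, by Pf4 and Myh11, a gene of smooth muscle. Their cells had median depths of 14055 UMIs or more in each library.

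Leading genes of several sub-clusters themselves differed between libraries, so the shares of sub-clusters are a description. Sub-cluster 1 was 24.0% [19.2, 29.4] of sham and 24.3% [21.5, 27.3] of DMM lining cells, and sub-cluster 2 was 19.9% and 21.5%. The intervals of both libraries overlap in 1 and in 2. Sub-cluster 3 was 3.83% and 22.3%, from 11 and 194 cells, and sub-cluster 4 was 25.4% and 14.5%. Sub-cluster 5 held 50 of 287 sham and 96 of 871 DMM lining cells, a share 1.58-fold [1.15, 2.17] lower in DMM. Among leading genes that differed between libraries, Tnfaip6 and Cxcl1 lead 2, Timp1, Ccn5 and Spp1 lead 3, and Rgs5 and Sema3e lead 4. When the genes were centred by library before clustering, the matching groups were 10.1% and 14.6% for sub-cluster 3 and 25.4% and 21.7% for sub-cluster 4. Spp1 stood at 69.0 CPM in sham and 459 CPM in DMM over all members, 6.66-fold [5.84, 7.62], with 12.4% of its DMM UMIs in 1 cell. It was higher in DMM also inside sub-clusters 1 (13.9 and 60.6 CPM), 2 (16.5 and 80.5 CPM), 4 (7.64 and 24.8 CPM) and 5 (27.8 and 978 CPM). In the same order, the sham levels rest on 11, 11, 6 and 16 UMIs. Scrublet called 19.8% of DMM and 0% of sham cells of sub-cluster 5 doublets, and their part in its Spp1 ratio was not tested.

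**Figure D5:**
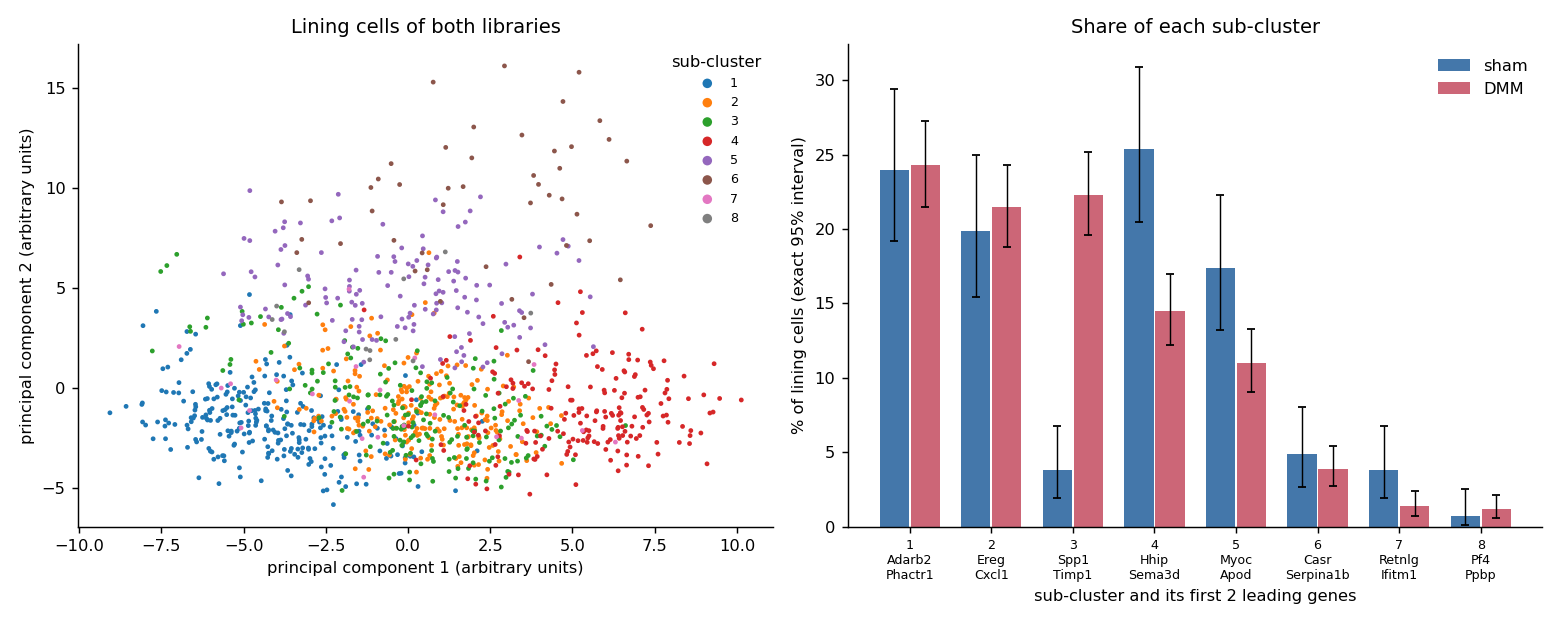
Left, the 1158 lining cells on the first principal components, coloured by sub-cluster; right, the share of each sub-cluster in sham (blue) and DMM (red) lining cells with exact intervals. Sub-clusters 1 and 4 lie at opposite ends of component 1, and sub-cluster 3 is 3.83% of sham and 22.3% of DMM cells.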

How the data were processed

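Cells of 2 libraries, sham and DMM, each pooled from 3 mice, were measured by droplet single-cell RNA sequencing. The deposited files hold raw counts of UMIs per gene and barcode. Per the file headers they were made with Cell Ranger 7.1.0, while the submitters' processing notes name Cell Ranger 3.0.1 and mm10. The libraries held 11362 and 11076 barcodes and 106799078 and 97346999 UMIs, and shared 24 barcodes, 17 of them among kept cells. Another 6 columns of per-sample values were not used.

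Members, gene lists and markers were chosen with earlier results of these data known. UMIs of members were summed per library and given as CPM with Poisson intervals. Ratios carry exact conditional binomial intervals and shares Clopper-Pearson intervals. Genes with 50 UMIs over both libraries were compared, and a call needed 2-fold and an interval without 1. With 1 library per group there was no test and no p-value. The scripts were tested on simulated data.

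Named genes were the 10 highest and 10 lowest ratios with at least 100 UMIs, at least 50 CPM on the higher side, an interval that leaves out 1, an unchanged direction under median-of-ratios scaling and no cell with over 10% of the UMIs in the higher library. Mitochondrial, ribosomal, haemoglobin, blood and rule genes and gene models were left out. Added to these were the 15 genes furthest above both comparison populations, up to 4 members each way per list, genes fixed by name, leading genes of sub-clusters and marker genes; some genes that the rule names are not reported here. A list was said to stand apart where its median lay 0.3 or more from that of all genes. Genes furthest below both populations, and Spp1 over all members, were named after their values were seen.

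Members were clustered with Scanpy 1.11.5 (2000 variable genes, 30 components, 15 neighbours, Leiden resolution 0.5, leidenalg 0.10.2), and doublets were called with Scrublet in Scanpy and kept. Gene spans came from GENCODE on GRCm38, with 99.6% of 32285 features matched. Alternatives varied the limits of the rule, scaling, thinning, doublets, minimum UMIs and clustering.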

Additional observations from a re-analysis of the deposited data

Results flagged for a closer look

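In 5 genes the DMM to sham ratio was at least 2-fold in opposite directions in lining cells and in superficial chondrocytes. These differences were not tested, since each group had 1 library.

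Matn2, a matrix adaptor protein, had a log2 ratio of 1.15 in lining cells, where it stood at 63.5 and 141 CPM in sham and DMM. In superficial chondrocytes it stood at 24.3 and 9.04 CPM, and in adventitial fibroblasts at 18.1 and 38.8 CPM. Bglap, which encodes osteocalcin, had a ratio of 1.83 in lining cells and of -1.09 in superficial chondrocytes, at 121 and 56.9 CPM.

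The other 3 genes rested on few UMIs or cells. Sfrp2, a Wnt modulator, had a ratio of 2.36 from 4 sham and 61 DMM UMIs, and 1 DMM cell held 34.4% of them. Apod, an apolipoprotein, had a ratio of 1.35 at 9.31 and 23.7 CPM, with 29.3% of the DMM UMIs in 1 cell. The histone gene Hist1h2ae had a ratio of 1.41 at 3.49 and 9.30 CPM, but stood at 0.676 and 1.29 CPM without the mixed sub-clusters and at 798 and 732 CPM in erythroid cells.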

How the results depend on the processing

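Without replicate libraries, no setting shows how far mice differ, and low genes are limited by the 3435580 sham UMIs. No paired analysis was possible because each group had 1 library. The ratio of lining shares was 2.49 with at least 2 markers, and between 2.97 and 3.26 in the other settings of the rule for all kept cells. Genes at least 2-fold lower numbered 406 with at least 2 markers and 149 with members thinned to 3000 UMIs, of which 54 were among the 238. With members thinned, 105 genes were at least 2-fold higher, of which 29 were among the 125. A minimum of 20 UMIs gave 188 higher and 432 lower genes, and one of 200 UMIs gave 40 and 71. The respiratory chain list stood apart in all 20 settings. Fibrous matrix lay 0.29 above all genes with at least 2 markers, 0.24 with Col2a1 under 4000 CPM, 0.26 with doublets left out, 0.26 with the mean of per-cell CPM and 0.22 when thinned. Glycolysis and hypoxia lay 0.27 above with Prg4 at 20000 CPM, 0.17 with 2 markers, 0.24 with 4 markers, 0.30 (just under the limit) with Col2a1 under 4000 CPM and 0.25 when thinned. Axon guidance lay at -0.23 with 2 markers and -0.29 with the rule on thinned cells, and Wnt at -0.25 when thinned. Relative to genes of the same span, a setting chosen after seeing the data, the values were -0.26 for Wnt, -0.26 for axon guidance, 0.26 for lysosome, 0.18 for antioxidant and 0.15 for glycolysis. Bglap2 was 0.60 and Bglap turned to -1.43 on the log2 scale with Col2a1 under 4000 CPM, and Hbb-bs to 0.02 with sub-clusters 1, 2, 4 and 5 weighted equally, a setting also chosen after seeing the data. The log2 ratio of sub-cluster shares was 1.02 for 2 at Leiden resolution 0.8. At resolution 0.3 sub-clusters 2, 3 and 5 merged into 1 cluster, of which 27.1% was sub-cluster 3 and 32.8% sub-cluster 5. Its ratio of 0.31 stands in for both and is the share of neither, against 2.54 for 3 and -0.66 for 5. For 3 it was 1.49 at 0.8 and 0.53 with genes centred by library. For 4 it was -0.20 at 0.3 and -0.23 when centred, against -0.81. The cause of these changes was not tested.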
